A study of Mus musculus with 4 samples.

Results

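The mRNAs of the kinesin genes with a Kif symbol were described in eCLIP-seq data of IGF2BP3 from mouse testes. Members were the protein-coding genes of GENCODE release M21 (build mm10) whose symbol starts with Kif followed by a digit or by the letter c. This rule took 43 of 21951 protein-coding genes. Of these, 42 encode motors of 13 kinesin families, and Kif1bp encodes a protein that binds kinesins and is no motor itself. An antisense gene (Kif16bos) and 3 pseudogenes with matching symbols were left out.

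Kinesins are motor proteins that use ATP to walk along microtubules with a cargo, to slide microtubules against each other or to take their ends apart. In the testis they serve the spindles of mitosis and meiosis, the division of the cytoplasm, the manchette that shapes the spermatid head, and transport into the growing sperm tail. IGF2BP3 is an RNA-binding protein of the cytoplasm with a known preference for m6A-modified mRNAs.

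In eCLIP-seq, RNA crosslinked to a protein by ultraviolet light is recovered with an antibody and sequenced, and its reads are grouped into clusters. The series held 2 replicates, each with 1 immunoprecipitate (IP) obtained with an IGF2BP3 antibody and 1 size-matched input (SMInput) taken as 2% of the lysate before the antibody step, 4 samples in all. All were wild-type C57BL/6 testes of mice aged 8 weeks, with germ cells and somatic cells lysed together, 2 testes to a preparation, crosslinked 3 times with 400 mJ/cm2 at 254 nm. The study calls its replicates biological, and the labels do not name the animals behind each. Since whole testes were used, fewer cells of a type and less RNA per cell cannot be told apart in any value given here. The log2 fold change of a cluster sets its share of the IP reads against its share of the SMInput reads.

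Usable reads numbered 5133438 in the IP and 8706391 in the SMInput of replicate 1. In replicate 2 they numbered 4637612 and 16696122. A cluster was called a significant peak where the deposited log2 fold change and the deposited −log10 P were both at least 2. Each P compares the reads of an IP with those of its own SMInput, so it measures the difference between 2 libraries and not a spread over animals. Because the SMInput of replicate 2 was sequenced more deeply, few IP reads sufficed there. A cluster with 1 SMInput read needed 7 IP reads to pass in replicate 1 and 4 in replicate 2.

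Clusters on the strand of a Kif gene numbered 1269 of 337234 in replicate 1 and 823 of 216354 in replicate 2. Of the 43 members, 41 had at least 1 cluster in replicate 1 and 39 in replicate 2. Kif12 and Kif7 had none in either replicate, so their mRNAs gave no measurement. Kif12 is known from kidney and liver epithelia and Kif7 from Hedgehog signalling at the tip of the primary cilium. Kif3c and Kifc5b had clusters in replicate 1 alone.

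Significant peaks were found in 22 of 41 members in replicate 1 (53.7%, 95% Wilson interval 38.7 to 67.9), against 40.8% of all protein-coding genes with a cluster. In replicate 2 they were found in 28 of 39 members (71.8%, 56.2 to 83.5), against 62.8% of all such genes. Peaks in both replicates were found in 18 of the 39 members with clusters in both (46.2%, 31.6 to 61.4), and the share over all genes was 39.1%. All 3 intervals, which cover counting error only, held the share of all genes, so none of these 3 counts sets the members apart. Kif genes are also long: the median member with a cluster in replicate 1 spanned 48222 bases and held 23.0 clusters, against 26919 bases and 12.0 clusters over all genes. In replicate 2 the medians were 49975 bases and 16.0 clusters, against 27158 bases and 9 clusters. The part of gene length in the shares of genes with a peak was not tested.

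Counted by cluster, the members were at or below the rest of the tables. In replicate 1, 50 of 1269 member clusters were significant (3.94%, 3 to 5.16), against 4.92% of all clusters. In replicate 2, 72 of 823 were significant (8.75%, 7 to 10.9), against 13.2%, and this interval lay below the share of all clusters. Clusters of a gene share its RNA and are not independent, so an interval over clusters is too narrow. The median log2 fold change over all member clusters was 1.5 in replicate 1, equal to that of all clusters, and 1.43 in replicate 2, where all clusters had 1.53.

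The calls of the members fell into 5 groups beside the 2 genes without clusters. Peaks of both replicates overlapped by at least 1 base in Kif11, Kif1b, Kif24, Kif2a and Kif3b, 5 of 39 members (12.8%, 5.60 to 26.7), against 16.6% of all genes with clusters in both. Another 13 of these 39 had peaks in both replicates at different places (33.3%, 20.6 to 49.0), against 22.5%. Of the 41 members with a cluster in at least 1 replicate, 4 had peaks in replicate 1 alone (9.76%, 3.86 to 22.5) and 10 in replicate 2 alone (24.4%, 13.8 to 39.3), against 6.34% and 22.3% of all such genes. The remaining 9 had clusters and no peak. In all, 32 of the 41 had a peak in at least 1 replicate (78.0%, 63.3 to 88.0), against 61.7%, and of these counts of genes this interval alone lay above the share of all genes.

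**Figure D1:**
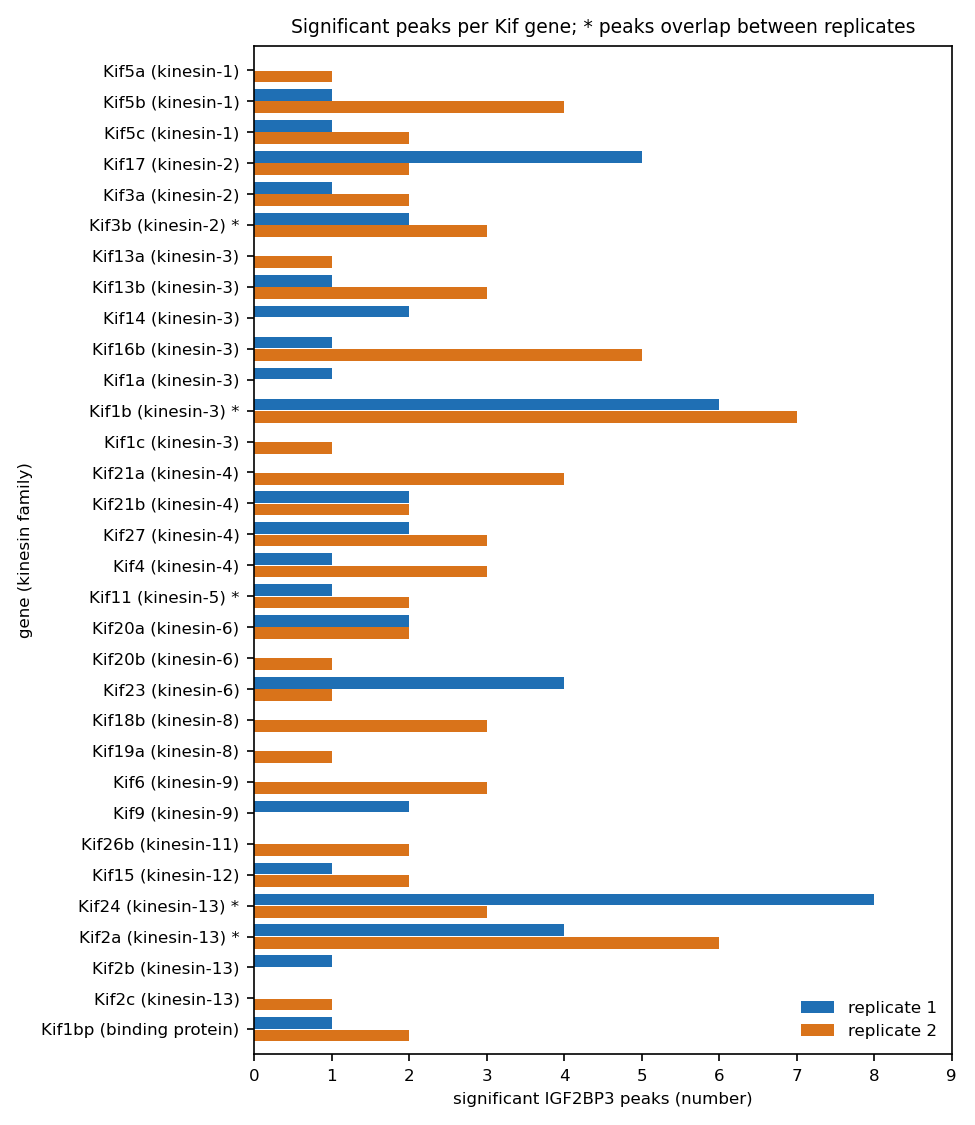
Number of significant IGF2BP3 peaks (horizontal axis) in each of the 32 Kif genes with at least 1 peak, ordered by kinesin family, with a bar for replicate 1 in blue and a bar for replicate 2 in orange. The longest bars are those of Kif24 with 8 peaks in replicate 1 and Kif1b with 7 in replicate 2, and an asterisk marks the 5 genes whose peaks overlap between the replicates.

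Member peaks had few reads, and in replicate 2 most had fewer than 10 IP reads. The median number of IP reads in a member peak was 11 in replicate 1 and 6 in replicate 2, against 13 and 8 over all significant peaks. Fewer than 10 IP reads lay behind 22 of 50 member peaks in replicate 1 (44.0%, 31.2 to 57.7), against 29.1% of all peaks. In replicate 2 this held for 52 of 72 (72.2%, 61.0 to 81.2), against 62.0%. The SMInput number was 1, which may also stand for 0, in 16 peaks of replicate 1 (32.0%, 20.8 to 45.8), against 22.9% of all peaks, and in 29 of replicate 2 (40.3%, 29.7 to 51.8), against 25.9%. The peaks of the Kif mRNAs thus rested on few reads, and sites in members with few reads may not have been detectable at this depth.

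The fold changes themselves were like those of other peaks. The median log2 fold change of the member peaks was 2.88 in replicate 1 and 3.17 in replicate 2, against 2.85 and 3.07 over all significant peaks. The strongest member peak by −log10 P reached 5.75 in replicate 1 and 17.7 in replicate 2, while values up to 400 were listed elsewhere in the tables. After Benjamini-Hochberg adjustment over all clusters of a table, 27 of the 50 peaks of replicate 1 (54.0%, 40.4 to 67.0) and 51 of the 72 peaks of replicate 2 (70.8%, 59.5 to 80.1) kept an adjusted P of at most 0.05, against 65.9% and 79.0% of all significant peaks.

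By region, 16 of 50 member peaks of replicate 1 lay in a 3′UTR (32.0%, 20.8 to 45.8), against 44.8% of all peaks in protein-coding genes. In replicate 2 this was 26 of 72 (36.1%, 26.0 to 47.6), against 37.9%. Both intervals held the share of all genes. Introns held 18 peaks in replicate 1 (36.0%, 24.1 to 49.9), against 22.6% over all genes, and 35 in replicate 2 (48.6%, 37.4 to 59.9), against 38.2%. Coding sequence held 15 peaks in replicate 1 (30%, 19.1 to 43.8; 29.5% over all genes) and 8 in replicate 2 (11.1%, 5.74 to 20.4; 21.2% over all genes). A 5′UTR held 1 peak, in Kif2c in replicate 2, and 3 peaks in Kif17 and Kif19a lay within the gene but outside its basic transcripts. The intron share of replicate 1 lay above the share of all genes by its interval and the coding share of replicate 2 below it, and neither did so in the other replicate.

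Region was also read by read number. Among peaks with fewer than 10 IP reads, introns held 11 of 22 in replicate 1 (50%) and 34 of 52 in replicate 2 (65.4%), against 55.8% and 59.3% over all genes. Among peaks with at least 10 IP reads, the 3′UTR held 10 of 28 in replicate 1 (35.7%, 20.7 to 54.2), against 52.9% over all genes, and 14 of 20 in replicate 2 (70.0%, 48.1 to 85.5), against 61.0%. Introns held 7 of these 28 in replicate 1 (25.0%), against 9.24% over all genes, and 1 of these 20 in replicate 2 (5%), against 4.68%. The deeper peaks of replicate 2 were therefore mostly 3′UTR peaks, while those of replicate 1 were spread over 3′UTR, coding sequence and introns. Seen by region, 14.4% of the member clusters in a 3′UTR were significant in replicate 1 (9.07 to 22.1) and 2.55% of those in introns (1.62 to 3.99). In replicate 2 these shares were 29.5% (21 to 39.8) and 9.38% (6.82 to 12.8). Over all genes the 3′UTR clusters were likewise called more often, with 19.4% and 34.5% against 1.92% and 10.7% in introns.

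**Figure D2:**
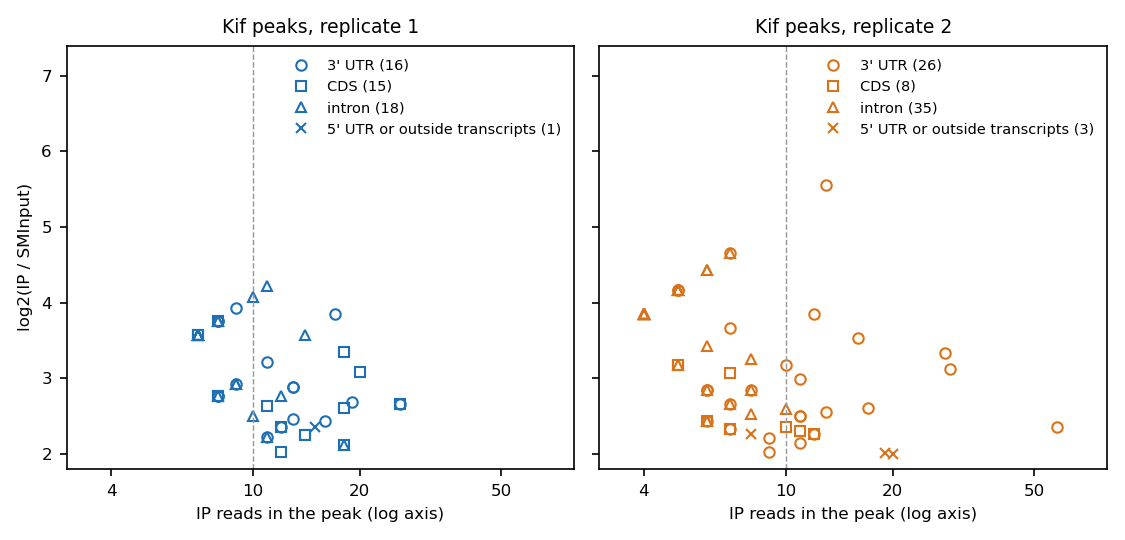
IP reads (horizontal log axis) and log2 of IP over SMInput (vertical axis) of each significant peak in the Kif genes, 50 in replicate 1 (left) and 72 in replicate 2 (right), with a marker shape for each region and a dashed line at 10 IP reads. In replicate 2 most peaks with fewer than 10 reads are intron peaks, and 14 of the 20 peaks with 10 reads or more are in a 3′UTR, up to 58 reads in Kif2a.

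Intron peaks of the members were placed by their distance to an exon, with no value over all genes to set beside it. The median distance from the peak centre to the nearest exon was 1667 bases in replicate 1, with a range of 195 to 11773, and 1417 bases in replicate 2, with a range of 149 to 38137. The first intron held 10 of the 18 intron peaks of replicate 1, several of them in Kif24, and 7 of the 35 of replicate 2. These counts also stand without a share over all genes. Of these intron peaks, 10 and 25 rested on 1 SMInput read. In the 3′UTR, the median peak centre was 922 bases after the stop codon in replicate 1 and 570 bases in replicate 2. Some calls counted as separate peaks touched each other and had equal values, 2 pairs in replicate 1 (Kif14 and Kif23) and 4 pairs in replicate 2 (Kif13b, Kif26b, Kif27 and Kif4).

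The microtubule-depolymerising kinesin-13 family held 13 peaks among 186 clusters in replicate 1 and 10 among 130 in replicate 2. Of all clusters 4.92% and 13.2% were called. Among its 4 members were 2 of the 5 genes with overlapping peaks, beside 16.6% of all genes. Counts of the other families are to be read beside the same shares, and no family was tested against them. Kif2a takes microtubule ends apart at spindle poles and in neurons. Its significant site in both replicates lay in the 3′UTR on the minus strand, at chr13:106961610-106961665 in replicate 1 and at chr13:106961583-106961667 in replicate 2. This is exon 22 of 22 of the transcript Kif2a-204, with the centre 502 bases after the stop codon of a 3′UTR of 879 bases. The site had 26 IP and 7 SMInput reads in replicate 1 and 29 IP and 12 SMInput reads in replicate 2. The log2 fold change was 2.66 and then 3.12, with a −log10 P of 5.75 and 12.9. The site was chosen for passing in both replicates, so the likeness of these values is no separate result. It lay in a part of the 3′UTR that the transcript with the longest coding sequence, Kif2a-206, does not reach.

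A second Kif2a site, nearer to the stop codon, lay at the edge of the call. In replicate 2, chr13:106961966-106962058 had 58 IP and 41 SMInput reads, a log2 fold change of 2.35 and a −log10 P of 17.7, the most IP reads of any member peak. In replicate 1, chr13:106961931-106962059 had 75 IP and 32 SMInput reads, the most of any member cluster there, and a −log10 P of 11.5. Its log2 fold change of 1.99 missed the threshold of 2, so the site was called in replicate 2 alone although both values were close. Further Kif2a peaks in replicate 2 lay 624 bases after the stop codon of Kif2a-204 (log2 fold change 3.53, 16 IP reads) and 1146 bases after that of Kif2a-201 (2.99, 11 IP reads). The 3′UTRs of Kif2a held 8 clusters in replicate 1 and 7 in replicate 2, of which 1 and 4 were called. Its other peaks were 2 coding peaks of replicate 1 in exons 14 and 18 of Kif2a-206, with 14 and 12 IP reads and log2 fold changes of 2.25 and 2.03, 1 peak of replicate 1 in intron 1 with 7 IP reads, and 2 peaks of replicate 2 in intron 1 with 8 and 6. The clusters of replicate 2 over the coding peaks had 0.41 and 0.59.

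Kif24 depolymerises microtubules at the mother centriole and restrains cilium formation. Its overlapping peaks lay in the 3′UTR on the minus strand of chromosome 4, at chr4:41391007-41391106 in replicate 1 and chr4:41391080-41391177 in replicate 2, with 27 bases in common. They fell in exon 13 of 13, 1019 bases after the stop codon of a 3′UTR of 1367 bases. Reads numbered 13 in the IP and 3 in the SMInput of replicate 1, and 13 in the IP and 1 in the SMInput of replicate 2. The log2 fold change was 2.88 in replicate 1 and 5.55 in replicate 2, the largest of any member peak, with a −log10 P of 3.40 and 7.57. IP reads were equal, while SMInput reads and library totals differed between the replicates. Kif24 also had 8 peaks in replicate 1, the most of any member there, of which 5 lay in introns 1 and 3, up to a log2 fold change of 4.22 with 11 IP reads and 1 SMInput read. None of these intron peaks met a peak in replicate 2. The other 2 lay 605 and 1267 bases after the stop codon, with 8 and 13 IP reads. Replicate 2 had 2 further peaks, 1 lying 552 bases after the stop codon with 13 IP reads and 1 in intron 1 with 7 IP reads and a log2 fold change of 4.66.

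Kif2b and Kif2c, the other members of this family, showed no shared peak. Kif2b, a gene of a single exon that acts on kinetochore microtubules, had 1 peak in its coding sequence in replicate 1, with 20 IP reads and a log2 fold change of 3.08. In replicate 2 its deepest cluster, at chr11:91576176-91576284, had 42 IP and 59 SMInput reads and a log2 fold change of 1.36. Kif2c, which corrects faulty kinetochore attachments, had 1 peak, in a 5′UTR in replicate 2, with 20 IP and 18 SMInput reads and a log2 fold change of 2.00, the lowest of any member peak. Its cluster there in replicate 1 had 9 IP and 11 SMInput reads and a log2 fold change of 0.47.

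Among spindle motors, Kif11 held a shared site. Kif11, the kinesin-5 motor that pushes spindle poles apart, had a single peak in replicate 1, and it lay in the 3′UTR at chr19:37420926-37420987 on the plus strand. The peak of replicate 2 at chr19:37420922-37421033 covered it whole. The site fell in exon 22 of 22, 566 bases after the stop codon of a 3′UTR of 1469 bases. It had 19 IP and 5 SMInput reads in replicate 1 and 28 IP and 10 SMInput reads in replicate 2. The log2 fold change was 2.69 and 3.33, with a −log10 P of 4.30 and 13.4. The site was chosen by these values, so their likeness is no separate result. In this 3′UTR, 3 other clusters of replicate 1 were not significant. A second Kif11 peak of replicate 2, in intron 1, had 6 IP reads and a log2 fold change of 2.43. Kif15, a kinesin-12 motor that can take over spindle functions of Kif11, had intron peaks alone, 1 in replicate 1 with 8 IP reads and 2 in replicate 2 with 4 IP reads each.

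Among the kinesin-6 motors of the central spindle and cytokinesis, 2 of 3 had peaks in both replicates and none overlapped. Over all genes with clusters in both these shares were 39.1% and 16.6%, and 3 genes are too few to set the family apart. Kif20a, which moves the chromosomal passenger complex to the midzone, had 2 coding peaks in replicate 1 up to a log2 fold change of 2.76. In replicate 2 it had a coding peak and a 3′UTR peak, the latter 51 bases after the stop codon with 17 IP and 10 SMInput reads, a log2 fold change of 2.61 and a −log10 P of 6.15. That 3′UTR peak met clusters of replicate 1, of which the one with the higher log2 fold change had 1.90 and a −log10 P of 1.74, under both thresholds. Kif23, a subunit of centralspindlin, had 4 peaks in replicate 1 with at most 9 IP reads and 1 intron peak in replicate 2. Kif20b had 1 coding peak in replicate 2, with 7 IP reads.

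The kinesin-8 motors, which act at microtubule plus ends, had no peak among 31 clusters in replicate 1 and 4 among 29 in replicate 2. Of all clusters 4.92% and 13.2% were called. Kif18b, which shortens astral microtubules, had 3 peaks in replicate 2, 2 of them 82 and 204 bases after the stop codon. The stronger of these had 10 IP and 4 SMInput reads, a log2 fold change of 3.17 and a −log10 P of 4.01. Kif19a, which sets cilium length, had 1 peak in replicate 2 with a log2 fold change of 2.26, past the end of its basic transcripts. Kif18a, which damps chromosome movements at the metaphase plate, had 13 and 9 clusters and no peak. Kif22, the kinesin-10 motor on chromosome arms, had 6 and 2 clusters and no peak.

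Kinesin-3 motors carry vesicles and organelles over long distances. The family held 11 peaks among 326 clusters in replicate 1 and 17 among 160 in replicate 2, of which Kif1b had 6 and 7 peaks. Kif1b is known in long and short isoforms, the long one carrying synaptic vesicle precursors and the short one mitochondria. The overlapping peaks lay in the 3′UTR of the long transcript Kif1b-203, at chr4:149180434-149180495 in replicate 1 and chr4:149180421-149180459 in replicate 2 on the minus strand. The site fell in exon 49 of 49, 322 bases after the stop codon of a 3′UTR of 4449 bases. It had 11 IP and 2 SMInput reads in replicate 1 and 12 IP and 3 SMInput reads in replicate 2. The log2 fold change was 3.22 and 3.85, with a −log10 P of 3.21 and 5.59, so that of the 5 shared sites this was the one with a log2 fold change above 3 in both replicates.

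Further Kif1b peaks lay in the same 3′UTR. Replicate 1 had 3 more there, of which the strongest, at chr4:149177241-149177360, lay 3467 bases after the stop codon with 17 IP and 2 SMInput reads and a log2 fold change of 3.85. Replicate 2 had 3 more, 160, 3152 and 4353 bases after the stop codon. None of these 6 overlapped a peak of the other replicate. A peak of replicate 2 with 7 IP reads and 1 SMInput read lay in the 3′UTR of the short transcript Kif1b-201, at chr4:149234880-149234949, with a log2 fold change of 4.66. The remaining Kif1b peaks were 2 in coding exons 16 and 43 in replicate 1, with 7 and 12 IP reads, and 2 in introns 22 and 34 in replicate 2, with 5 and 4 IP reads. The exon 43 peak met a cluster of replicate 2 with 4 IP and 3 SMInput reads, a log2 fold change of 2.26 and a −log10 P of 1.35.

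**Figure D3:**
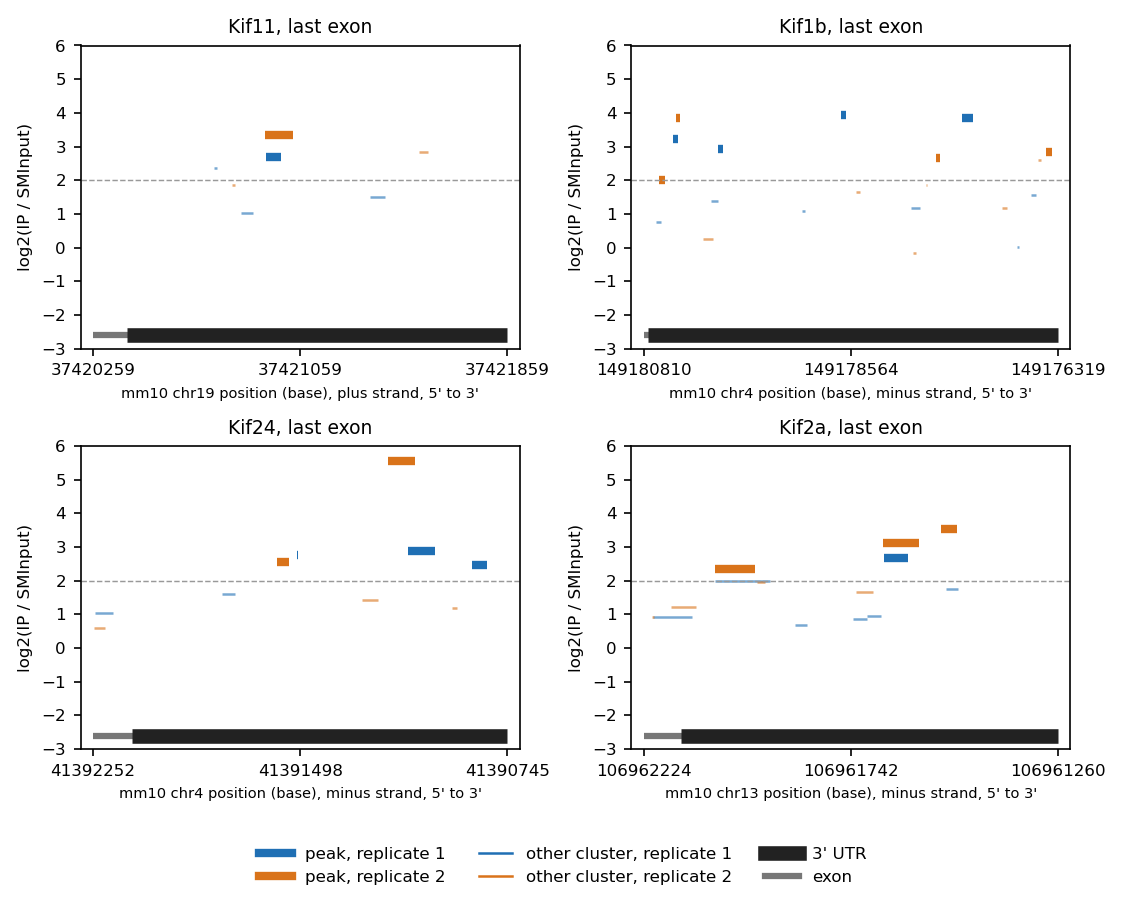
Significant peaks (thick bars) and other clusters (thin bars) in the last exons of Kif11, Kif1b, Kif24 and Kif2a, placed by mm10 position in bases (horizontal axis, 5′ to 3′) and by log2 of IP over SMInput (vertical axis), replicate 1 in blue and replicate 2 in orange, with the 3′UTR as a black bar and the threshold of 2 as a dashed line. In each gene a thick blue and a thick orange bar share bases, the bars of Kif2a and Kif11 at like heights and those of Kif24 at 2.88 and 5.55.

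The other kinesin-3 genes had few reads. Kif16b, a motor of early endosomes, had 99 and 60 clusters, 1 intron peak in replicate 1, and 5 peaks in replicate 2 of which 2 in the last exon of Kif16b-205 had 12 IP and 9 SMInput reads each and a log2 fold change of 2.26. Kif13b, which binds the polarity protein Dlg1, had 1 intron peak in replicate 1 and 3 peaks in replicate 2, with at most 8 IP reads. Kif1a and Kif14 had peaks in replicate 1 alone, Kif1a 1 in its 3′UTR with 8 IP reads and Kif14, a motor of cytokinesis, a touching pair in an intron with 7 each. Kif1c and Kif13a had 1 peak each in replicate 2, with 6 and 4 IP reads. The 2 clusters of Kif28 in each replicate also lay in Ahctf1 on the same strand and cannot be given to either gene.

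Kinesin-1, the conventional motor of vesicles and organelles, had 2 peaks among 93 clusters in replicate 1 and 7 among 55 in replicate 2. None of them overlapped, in a family of 3 genes. Kif5b, the heavy chain found in most tissues, had 1 peak in replicate 1, in its 3′UTR with 8 IP reads. In replicate 2 it had 4 peaks, 2 of them in the 3′UTR, 319 and 2191 bases after the stop codon, with log2 fold changes of 2.14 and 2.33. Kif5c and Kif5a are heavy chains known best from neurons. Kif5c had a 3′UTR peak in each replicate at different places, 1701 bases after the stop codon in replicate 1 and 257 bases in replicate 2, with 8 and 6 IP reads. Each met a cluster of the other replicate that passed the fold threshold and missed that of P, with a log2 fold change of 2.85 and a −log10 P of 1.64 in replicate 2 and with 3.08 and 1.54 in replicate 1. A second Kif5c peak of replicate 2 lay in intron 25 with 5 IP reads. Kif5a had 1 peak, in the 3′UTR in replicate 2 with 6 IP reads.

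Kinesin-2 motors drive transport into cilia and the sperm tail. They held 8 peaks among 127 clusters in replicate 1 and 7 among 104 in replicate 2. Kif3b, a subunit of the heterotrimeric kinesin-2, had the single shared site in an intron, at chr2:153293141-153293234 in replicate 1 and chr2:153293149-153293242 in replicate 2 on the plus strand, in intron 1 of Kif3b-201. Reads numbered 11 in the IP and 4 in the SMInput of replicate 1, and 8 in the IP and 5 in the SMInput of replicate 2. The log2 fold change was 2.22 and 2.53, with a −log10 P of 2.24 and 2.66, both close to the thresholds. The Benjamini-Hochberg adjusted P was 0.089 in replicate 1 and 0.02 in replicate 2, so this site was the weakest of the 5 shared ones. Kif3b also had 2 peaks in its 3′UTR in replicate 2, with 11 and 9 IP reads, and a second peak in intron 1 in replicate 1, with 7 IP reads and a log2 fold change of 3.57.

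Kif3a, the partner of Kif3b, had 3′UTR peaks in both replicates that lay near each other without overlap. The peak of replicate 1 at chr11:53601727-53601807 had 16 IP and 5 SMInput reads and a log2 fold change of 2.44. The peak of replicate 2 at chr11:53601833-53601877 had 6 IP and 3 SMInput reads and a log2 fold change of 2.85. It overlapped a cluster of replicate 1 with 5 IP and 3 SMInput reads and a log2 fold change of 1.5. The peaks lay 708 and 796 bases after the stop codon, so both calls fell in the last part of the 3′UTR of 908 bases of Kif3a-203. A second Kif3a peak of replicate 2, in intron 9, had 10 IP reads and a log2 fold change of 2.59. Kif3c, a further partner of Kif3a, had 3 clusters in replicate 1 and no peak.

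Kif17, a homodimeric kinesin-2 known in male germ cells for moving the CREM coactivator ACT, had 5 peaks in replicate 1, of which 3 lay in coding sequence. The strongest by −log10 P was at chr4:138292114-138292186 in exon 11 of 15, with 26 IP and 7 SMInput reads and a log2 fold change of 2.66. A peak in exon 10, at chr4:138291577-138291599, had 18 IP and 3 SMInput reads and a log2 fold change of 3.35. In replicate 2, the cluster over most of the exon 11 peak, at chr4:138292114-138292181, had 9 IP and 20 SMInput reads, a log2 fold change of 0.70 and a −log10 P of 0.491. A second cluster, which met the last base of that peak, had 18 IP and 32 SMInput reads and a log2 fold change of 1.02. The cluster over the exon 10 peak had 33 IP and 40 SMInput reads, a log2 fold change of 1.57 and a −log10 P of 5.63. Both coding sites passed the fold threshold in replicate 1 alone. In replicate 2, a peak at chr4:138301671-138301737, past the end of the basic transcripts, had 19 IP and 17 SMInput reads and a log2 fold change of 2.01. The cluster of replicate 1 over it had 44 IP and 23 SMInput reads and 1.70. Replicate 1 also had a peak past these transcripts, at chr4:138301890-138301946, with 15 IP and 5 SMInput reads and a log2 fold change of 2.35. There the cluster of replicate 2 had 17 IP and 16 SMInput reads, a log2 fold change of 1.94 and a −log10 P of 4.08. The second Kif17 peak of replicate 2 lay in intron 6 with 4 IP reads.

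The 5 kinesin-4 genes had 5 peaks among 165 clusters in replicate 1 and 12 among 109 in replicate 2, and none overlapped. Kif21b, which slows microtubule growth, had 2 peaks in each replicate, all 4 in its 3′UTR of 3907 bases. Those of replicate 1 lay 1810 and 3590 bases after the stop codon with 12 and 11 IP reads, and those of replicate 2 lay 1417 and 1599 bases after it with 5 and 7 IP reads. Its close relative Kif21a had no peak in replicate 1 and 4 intron peaks in replicate 2, with at most 6 IP reads. Kif27, known from motile cilia, had 1 coding and 1 intron peak in replicate 1 and 3 intron peaks in replicate 2. The coding peak had 18 IP and 7 SMInput reads and a log2 fold change of 2.12, and the cluster of replicate 2 over it had 10 IP and 23 SMInput reads and 0.65. Kif4, which acts on chromosomes and the central spindle, had 1 coding peak in replicate 1 and 3 intron peaks in replicate 2 with 4 IP reads each.

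Kif9 and Kif6 make up the kinesin-9 family. Kif9, a motor of the sperm flagellum, had 65 clusters with 2 peaks in replicate 1 and 63 clusters with no peak in replicate 2. Of all clusters 4.92% and 13.2% were called. Its 3′UTR peak in replicate 1, at chr9:110524082-110524141, had 13 IP and 3 SMInput reads and a log2 fold change of 2.88. The median log2 fold change over its clusters was 0.65 in replicate 1 and 0.47 in replicate 2, below the medians of all clusters, 1.5 and 1.53. Such low medians were not particular to Kif9, since Kif2c had 0.37 and 0.63. Kif6 had 48 and 24 clusters, mostly in introns, and 3 intron peaks in replicate 2 with at most 6 IP reads.

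Kif26b of the kinesin-11 family had a touching pair of intron peaks in replicate 2 with 4 IP reads each, and Kif26a had 4 clusters in each replicate and no peak. The kinesin-14 family, which moves toward microtubule minus ends, had 41 clusters in replicate 1 and 19 in replicate 2 and no peak in either. Of all clusters 4.92% and 13.2% were called, and counts this small do not set the family apart. Its members are Kifc1, known from meiotic spindle poles and from the manchette, Kifc2, Kifc3 and Kifc5b. Kifc1 and Kifc5b are near copies, and 59.6% of the 30-base words of the Kifc1 transcript also occur in Kifc5b, so the reads of each are uncertain. Kif1bp, which binds motor domains and blocks their contact with microtubules, had 1 coding peak in replicate 1 with 18 IP and 5 SMInput reads and a log2 fold change of 2.61. In replicate 2 the cluster over that peak had a log2 fold change of -0.03. Its 2 peaks in replicate 2 lay elsewhere, with 5 and 6 IP reads.

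Over all read numbers together, a smaller share of member peaks than of all peaks met a peak of the other replicate. Peaks of a gene are not independent, and this difference was not tested. Of the 50 member peaks of replicate 1, 16 met a cluster of replicate 2 (32.0%, 20.8 to 45.8) and 5 met a peak (10%, 4.35 to 21.4), against 53.4% and 33% of all significant peaks. Of the 72 peaks of replicate 2, 20 met a cluster of replicate 1 (27.8%, 18.8 to 39.0) and 5 met a peak (6.94%, 3 to 15.2), against 41.7% and 18.5%. All of these intervals lay below the shares of all peaks. Of member peaks with fewer than 10 IP reads, 0 of 22 in replicate 1 (0 to 14.9) met a peak of the other replicate. In replicate 2, 1 of 52 did (1.92%, 0.340 to 10.1). Of all such peaks 6.12% and 3.40% did, and both intervals held these shares. Of peaks with at least 10 IP reads, 5 of 28 (17.9%, 7.88 to 35.6) and 4 of 20 (20%, 8.07 to 41.6) did, against 43.4% and 41.1%. At this depth the interval of replicate 1 lay below the share of all peaks, and that of replicate 2 held it.

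Shown are 30 bases around the centre of each of the 4 shared 3′UTR sites, chosen because these sites were called in both replicates. The bases common to both peaks numbered 26 in Kif1b and 27 in Kif24, so the outermost bases shown there lay in the peak of 1 replicate. Sequences are from GRCm38.p6 (mm10) on the strand of the gene, at chr19:37420941-37420970 (plus) for Kif11, chr4:149180431-149180460 (minus) for Kif1b, chr4:41391078-41391107 (minus) for Kif24 and chr13:106961622-106961651 (minus) for Kif2a. Capitals mark matches to the 4 motifs searched on the strand of the site, which were the 5-base words GAACA and AAACC, the 5-base word GGACT in the sequence context of m6A, and the 4-base word CACA.
Kif11: ccttcatttgttctcgctgatatgCACACA
Kif1b: tcagcttcctttggatgttaggtccccttc
Kif24: cgggtgtcttgGGACTgagtctacagtcag
Kif2a: tgtgccttggctaaggctattgaccctaga

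In windows of 100 bases around these sites, CACA occurred 3 times in Kif11, 3 times in Kif24 and 1 time in Kif1b, and GGACT 1 time in Kif24. The windows of Kif2a and of the Kif3b intron site held none of the motifs. The G and C content was 50% in Kif11, 52.0% in Kif1b, 51.0% in Kif24, 43.0% in Kif2a and 57.0% in Kif3b. No motif was thus common to the shared sites.

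Over all 3′UTR peaks of the members, CACA was found in 7 of 16 windows in replicate 1 (43.8%) and 9 of 26 in replicate 2 (34.6%), against 38.3% and 35.9% of all 3′UTR peaks. GGACT was found in 1 and 2 of them (6.25% and 7.69%), against 10.4% and 9.79%. AAACC was found in 2 and 4 (12.5% and 15.4%), against 8.71% and 8.46%. GAACA was found in 1 and 0, against 8.27% and 7.74%. Most of these member counts were of a few windows, and their differences from the shares of all 3′UTR peaks were not tested. In coding peaks, GAACA was found in 5 of 15 windows in replicate 1 (33.3%), against 10.5% over all genes, and in 0 of 8 in replicate 2, against 10.7%. In intron peaks it was found in 5 of 18 (27.8%), against 8.69%, and in 3 of 35 (8.57%), against 7.75%. CACA was found in 2 of 15 coding windows in replicate 1 (13.3%), against 39.3%, and in 3 of 8 in replicate 2 (37.5%), against 37.8%. In intron peaks CACA was found in 8 of 18 (44.4%), against 32.7%, and in 10 of 35 (28.6%), against 31.8%. GGACT was found in 0 of 15 and 1 of 8 coding windows (12.5%), against 10.1% and 9.12%, and in 2 of 18 and 5 of 35 intron windows (11.1% and 14.3%), against 8.72% and 8.07%. AAACC was found in 2 and 1 coding windows (13.3% and 12.5%), against 9.63% and 8.43%, and in 0 and 2 intron windows (0% and 5.71%), against 7.28% and 7.36%. Neither the higher shares of GAACA in coding and intron peaks of replicate 1 nor its lower share of CACA in coding peaks were thus seen in replicate 2.

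Genes that work with the kinesins were read in the same way. Of the 2 kinesins without a Kif symbol, Stard9 had 2 peaks in replicate 1 and 3 in replicate 2, none overlapping, and the kinetochore motor Cenpe had 44 and 27 clusters and no peak. Of the 4 kinesin light chains, which link kinesin-1 to cargo, Klc2 alone had peaks, 2 in replicate 2, with 20 IP reads and a −log10 P of 6.32 at most. Of 7 adaptors and partners, 4 had a peak in replicate 1, 4 in replicate 2 and 3 in both, beside 40.8%, 62.8% and 39.1% of all genes. Kifap3, the third subunit of the Kif3a and Kif3b motor, was the one with overlapping peaks and had 3 and 7 in all. Spag9, a JNK scaffold, had 9 and 13 peaks, none overlapping.

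Intraflagellar transport proteins, the cargo that kinesin-2 moves into cilia, were called most often of these lists. Of 24 genes, all with clusters, 16 had a peak in replicate 1, 23 in replicate 2, 16 in both and 7 overlapping peaks, beside 40.8%, 62.8%, 39.1% and 16.6% of all genes in the same order. The strongest was Ift80, with 8 and 12 peaks and a −log10 P of up to 11 in replicate 1 and 36.7 in replicate 2. Ttc30a2 reached 10.9 and 25.1, with up to 51 and 69 IP reads. Ift88, known to be needed for the sperm tail, had 6 and 2 peaks and a log2 fold change of up to 5.52 in replicate 1. No motor of the kinesin-2 family reached these values: the highest −log10 P of its peaks was 5.75 in replicate 1 and 4.79 in replicate 2, both in Kif17, where a cluster of replicate 2 that was not called had 5.63. The genes named here were the strongest of their list in replicate 1. The next highest −log10 P there was 5.06, in Ttc21b, below that of Kif17. In replicate 2, other genes of the list, such as Ift43 with 11.8, also lay above Kif17. With no test of the lists, these counts describe them and do not set them apart from other genes.

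Marker genes of the cells in a testis were read to check the labelled tissue, and their counts stand beside the 40.8% and 62.8% of all genes with a peak in replicates 1 and 2. All 7 spermatid markers had clusters in both replicates, and 3 had peaks in each, led by Odf1 with a −log10 P of 400 in both. Prm1, Prm2, Tnp1 and Tnp2, the defining genes of spermatid chromatin, had 7 to 10 clusters each and no peak. Of 6 spermatocyte markers, 1 had a peak in replicate 1 and 3 in replicate 2, and Ldhc had the strongest with a −log10 P of 22.2 and 39.8. Of 5 spermatogonium markers, 3 and 5 had a peak.

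Somatic markers were present as well, to be read beside the same 2 shares. Of 6 Sertoli cell markers, 6 and 5 had clusters and 2 and 1 had a peak, with Rhox5 without a cluster in replicate 2. Of 5 Leydig cell markers, 2 and 2 had a peak, the strongest in Insl3 in replicate 2 with a −log10 P of 46.8. Of 2 peritubular markers 1 and 2 had a peak, and of 3 macrophage markers 1 and 2. Germ cell and somatic genes thus both gave clusters in this mixture of cells, and the cell type behind a Kif peak was not tested.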

How the data were processed

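IGF2BP3 eCLIP-seq of testes was analysed in 2 replicates, each 1 IP and 1 SMInput library. The submitters' processing notes name cutadapt, Bowtie2, STAR and mm10. After collapse of PCR duplicates and cluster calling with CLIPper, the authors set the IP reads of each cluster against those of its SMInput. In the deposited tables, −log10 values hold the P of that comparison by the authors, listed from 0 to 400. The methods name Yates' chi-square and Fisher's exact test in a later step, on read numbers of gene regions. The deposited log2 values are the authors' ratios of IP to SMInput reads, scaled by library.

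A cluster belonged to a member where its centre lay in the gene span on the same strand, and 0 clusters ran past a chromosome end of GRCm38.p6. Its region came from basic transcripts of GENCODE M21 in the order 3′UTR, coding sequence, 5′UTR, other exon, intron. Library totals and reads were recovered as the whole numbers that return both listed values, with at least 1 SMInput read and P taken from a chi-square test with Yates' correction, or from Fisher's exact test where a read number or its expected value was below 5. This gave 1 pair for 1111 of 1111 and 738 of 742 member clusters with a −log10 P above 0, and for all member peaks. The recovery was tested on simulated data. No read number is given for the 158 and 81 member clusters listed at 0.

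All members are accounted for: those with overlapping peaks by the shared site in full, other peaks by number, with the values of some, and the rest by clusters, the kinesin-14 genes as a family. Single peaks of Kif2a, Kif17, Kif3a, Kif9 and other members given with reads beyond this rule were chosen after their values were seen. Members and lists (families, kinesins without a Kif symbol, light chains, adaptors, intraflagellar transport, cell markers, motifs) were chosen with earlier results of these data known. Kifbp of the adaptor list is Kif1bp in this annotation and was counted as a member. Shares have 95% Wilson intervals, for counting error only, and P values were adjusted by Benjamini-Hochberg over each whole table. No test over samples was made. Alternatives covered thresholds, adjusted P, a read minimum, gene assignment, joined peaks, overlap, region order, transcripts and each replicate alone. Python 3.11.15, numpy 2.4.6, pandas 2.3.3, scipy 1.17.1, statsmodels 0.14.6 and matplotlib 3.10.9 were used.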

Additional observations from a re-analysis of the deposited data

Results flagged for a closer look

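Kif7 had no cluster on its own strand, but the opposite strand of its span held 5 peaks of replicate 1 and 4 of replicate 2 that passed both thresholds, all in the non-coding gene 9330171B17Rik. These peaks were noted because clusters on the opposite strand enter no comparison of the report. The deepest lay at chr7:79711194-79711273 on the plus strand in replicate 1, with 52 IP and 4 SMInput reads, a log2 fold change of 4.46 and a −log10 P of 17.6. In replicate 2 it lay at chr7:79711204-79711275, with 38 IP and 4 SMInput reads, a log2 fold change of 5.1 and a −log10 P of 20.5. Both −log10 P values were above those of every Kif peak on the own strand in the same replicate. Opposite-strand peaks of other members were fewer, 1 in each replicate for Kif3c and 1 in replicate 1 for Kif27.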

How the results depend on the processing

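Of 63 values recomputed under 12 alternative settings, 44 stayed within their limits (1.5 times for a count, the 95% interval for a share) and 19 moved. A change of direction was not among the outcomes that could be recorded. With both thresholds at 3, members with a peak numbered 4 in replicate 1, 9 in replicate 2 and 2 in both (Kif1b and Kif24), and 1 had overlapping peaks (Kif1b). The share of member clusters called was then 0.630% and 1.46%, and the 3′UTR share of replicate 2 was 66.7%. With at least 10 IP reads, members with a peak numbered 13, 12 and 8 in both, clusters called were 2.21% and 2.43%, and the 3′UTR share of replicate 2 was 70.0%. With an adjusted P of at most 0.05, 10 members had peaks in both, clusters called were 2.13% and 6.20%, and the 3′UTR share of replicate 2 was 49.0%. These settings call fewer clusters by construction, and the cause of the higher 3′UTR share was not tested. The rise was not particular to the members. Of all peaks of replicate 2 in protein-coding genes, 61.0% lay in a 3′UTR with at least 10 IP reads, against 37.9% without a read minimum. The counts of members and clusters under these settings stand without shares over all genes or clusters. A log2 fold change of at least 1 gave 11.4% of clusters called in replicate 2, since it calls more by construction.

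Of the 5 overlapping sites, that of Kif1b was kept under every setting that used both replicates, and those of Kif11 and Kif2a under all of these but the thresholds of 3. Beside those thresholds, Kif24 was lost where 50% of the shorter peak had to overlap, and Kif3b with the adjusted P or at least 10 IP reads. A log2 fold change of at least 1 added Kif17 and Kif20a. With each replicate alone, members with a peak ranged from 22 to 28, which by construction cannot be fewer than the 18 in both. No paired analysis was possible because these counts and shares come from calls within each table, where 1 IP is already set against its own SMInput, and from no fit that a block could enter. A test of the 2 log2 fold changes at single shared sites was not made, since those values chose the sites.

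With 2 replicates, low read numbers limit every statement: peaks with few IP reads and 1 SMInput read can be gained or lost by single reads. The replicates differ in SMInput depth, and their numbers of peaks were not compared at equal depth. Overlapping Kifc1 and Kifc5b sequence leaves their reads uncertain.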
